A study of Mus musculus with 15 samples.

Results

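Epithelial junction genes encode the proteins that seal and hold together neighbouring epithelial cells. Among them here are the claudins Cldn1 to Cldn20 and Cldn22 to Cldn24, the other tight junction genes Ocln, Marveld2, Marveld3, F11r, Tjp1, Tjp3 and Cgn, the adhesion genes Cdh1 and Epcam, and the desmosome genes Dsg1a, Dsg1b, Dsg1c, Dsg2, Dsg3, Dsg4, Dsc1, Dsc2, Dsc3, Pkp1, Pkp2, Pkp3, Pkp4, Dsp and Jup. They were chosen by gene symbol, which gave 48 genes with 75 probes, of 37008 gene names with 56605 probes on the whole array. RNA of 15 mouse samples in 5 groups of 3 was hybridised to 1-colour arrays. Pancreatic stellate cells (PSC), the fibroblast-like cells of the pancreas, were grown for 2 weeks, until activated, and were either wild type (PSC WT) or heterozygous (PSC HT). Pancreatic cancer cells spent 24 h in control medium, in medium conditioned by WT PSC or in medium conditioned by HT PSC. The heterozygous locus, the cancer cell line, and whether replicates were separate animals or cultures are not stated in the labels, so the p-values rest on a spread between arrays that may be technical.

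Tight junctions close the gap between epithelial cells near their free surface. Claudins and occludin cross the membrane there, junctional adhesion molecules lie beside them, and the zonula occludens proteins and cingulin tie them from inside to actin. E-cadherin holds cells together in the adherens junction, and desmosomal cadherins, plakophilins, plakoglobin and desmoplakin anchor keratin filaments at spot-like contacts. Pancreatic duct and carcinoma cells carry such junctions, whereas stellate cells are mesenchymal and do not build a sealed sheet.

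The 250 bases before a transcription start are printed for 5 members because Cldn4 and Cldn6 rose and Tjp3 fell in cancer cells given either PSC medium, Cldn3 rose in HT PSC medium, and Epcam was among the genes with the largest differences between the cell types. The sequences are RefSeq's, of build GRCm38.p6, and run 5′ to 3′ toward the gene. Cldn3 lies at chr5:134985964-134986213 (+ strand), Cldn4 at chr5:134946935-134947184 (- strand), Cldn6 at chr17:23679115-23679364 (+ strand), Tjp3 at chr10:81291582-81291831 (- strand, the more upstream of its 2 listed starts) and Epcam at chr17:87635729-87635978 (+ strand). Capitals mark CAGGTG or its reverse complement CACCTG, the core letters that Snail and ZEB factors, repressors of Cdh1, are known to bind.
Cldn3: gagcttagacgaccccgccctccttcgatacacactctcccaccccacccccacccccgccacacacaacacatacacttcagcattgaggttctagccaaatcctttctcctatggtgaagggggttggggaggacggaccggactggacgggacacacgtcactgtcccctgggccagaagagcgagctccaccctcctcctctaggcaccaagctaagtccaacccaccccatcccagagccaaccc
Cldn4: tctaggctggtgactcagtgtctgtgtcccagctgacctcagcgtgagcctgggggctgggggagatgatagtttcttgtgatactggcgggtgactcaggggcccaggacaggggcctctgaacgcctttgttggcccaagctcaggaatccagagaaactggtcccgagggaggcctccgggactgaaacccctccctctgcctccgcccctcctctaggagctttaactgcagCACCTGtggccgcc
Cldn6: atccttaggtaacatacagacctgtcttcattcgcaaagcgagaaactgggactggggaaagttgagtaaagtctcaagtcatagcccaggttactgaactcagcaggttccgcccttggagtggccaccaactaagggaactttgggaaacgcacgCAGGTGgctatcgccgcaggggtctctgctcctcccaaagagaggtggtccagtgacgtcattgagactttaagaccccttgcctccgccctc
Tjp3: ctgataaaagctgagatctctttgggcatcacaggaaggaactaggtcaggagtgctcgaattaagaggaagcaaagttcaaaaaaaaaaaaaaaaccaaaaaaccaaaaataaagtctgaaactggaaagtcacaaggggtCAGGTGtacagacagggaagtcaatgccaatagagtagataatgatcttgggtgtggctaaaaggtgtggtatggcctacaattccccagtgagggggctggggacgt
Epcam: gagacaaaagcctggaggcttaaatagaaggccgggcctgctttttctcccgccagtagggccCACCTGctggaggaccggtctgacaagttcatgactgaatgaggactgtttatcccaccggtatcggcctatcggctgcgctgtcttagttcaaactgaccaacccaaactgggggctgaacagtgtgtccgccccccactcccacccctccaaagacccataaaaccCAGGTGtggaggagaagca

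Of the 48 members, 29 had a start in the RefSeq table, with 41 windows. At least 1 CAGGTG or CACCTG lay in 10 of those 41 windows (24.4%), against 17.22% of all 32851 windows of the table. The 9 genes with a match were Cldn4, Cldn6, Cldn7, Cldn14, Epcam, F11r, Ocln, Pkp4 and Tjp3. In the printed windows the match began 14 bases before the start in Cldn4, 93 in Cldn6, 108 in Tjp3, and 187 and 19 in Epcam. The Cldn3 window held none, and the other listed start of Tjp3 had a match 17 bases before it. A second motif, AACCNGTT, a grainyhead core read on both strands, was in 2 member windows (Cgn and Cldn5, 4.9%) and in 1.79% of all windows, and no member window held both motifs. Both motif counts describe letters only. Some members are neighbours: in the array's build, mm9, the Cldn6 and Cldn9 probes lie 1.1 kb apart on chromosome 17, and the Cldn3 and Cldn4 probes 41.1 kb apart on chromosome 5.

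A level below is a log2 signal minus the 75th percentile of its array, and a difference is a log2 difference ± SE between groups of 3 arrays, tested by limma and Benjamini-Hochberg adjustment over all genes tested at a threshold of 0.05. A gene was tested where its brightest probe was well above background on every array of at least 1 group compared. That percentile was 913 to 1449 signal units per array, 54.3% to 63.8% of spots were well above background and none was saturated. The arrays lay on 2 slides, each with arrays of every group. Marker lists were set beside the labels. All 10 epithelial markers were detected above background on every cancer cell array, at a summed level of 616 to 699 in control cells, and 7 to 8 of them on the PSC arrays, at 6.56 to 23.5. All 10 stellate and fibroblast markers were above background on every PSC array, and 3 to 5 on the cancer cell arrays.

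PSC HT 3 stood apart from the other 5 PSC arrays in the junction genes. Cdh1 read -2.45 there and -8.22 to -7.61 on the others, Cldn2 read -2.80 against -8.26 to -7.72, and Dsp read -3.43 against -7.67 to -6.13. These 3 genes were well above background on no other PSC array. As shares of the mean signal of control cancer cells, the readings were 0.85% for Cdh1, 2.38% for Cldn2 and 1.09% for Dsp. Dsg1a, a skin desmoglein, was also well above background on this array alone, at -4.16, and on none of the 9 cancer cell arrays. Of 14 members that were higher in cancer cells than in PSC WT by more than 5 log2 units, 10 were above all other PSC arrays on it, beside 299 of 431 such genes on the whole array (69.4%). Its lowest reading well above background was also the highest of the 15 arrays, at -4.73. Differences between the genotypes are therefore given with and without it for Cgn, F11r, Cldn3, Tjp3 and Cldn7. Values of other members, markers and related genes in PSC HT include it. The source of these readings was not tested.

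The first comparison set control cancer cells against PSC WT, cells that differ in type and in how they were cultured. Cancer cells had high levels of E-cadherin, occludin, desmoplakin and several claudins that were at background in PSC WT. In all, 30 of the 48 members were well above background on all 9 cancer cell arrays, and 20 on all 3 PSC WT arrays. Of 33 members tested, 25 were higher in cancer cells and 3 lower, with a median difference of 4.18. Most genes differed between the cell types (71.4% of 21928 tested, with 35.2% higher, 36.1% lower and a median of -0.04), and the groups did not overlap for 29 members, beside 75.6% of all genes. A group of 10 members, Cdh1, Epcam, Cldn2, Cldn4, Cldn6, Ocln, Dsg2, Dsc2, Dsp and Pkp3, were well above background on all cancer cell arrays and on no PSC WT array. For these, a fold change is a lower bound, set against the higher of the reading and the array's lowest reading well above background. In bulk samples, fewer cells of a type and less RNA per cell cannot be told apart.

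**Figure D1:**
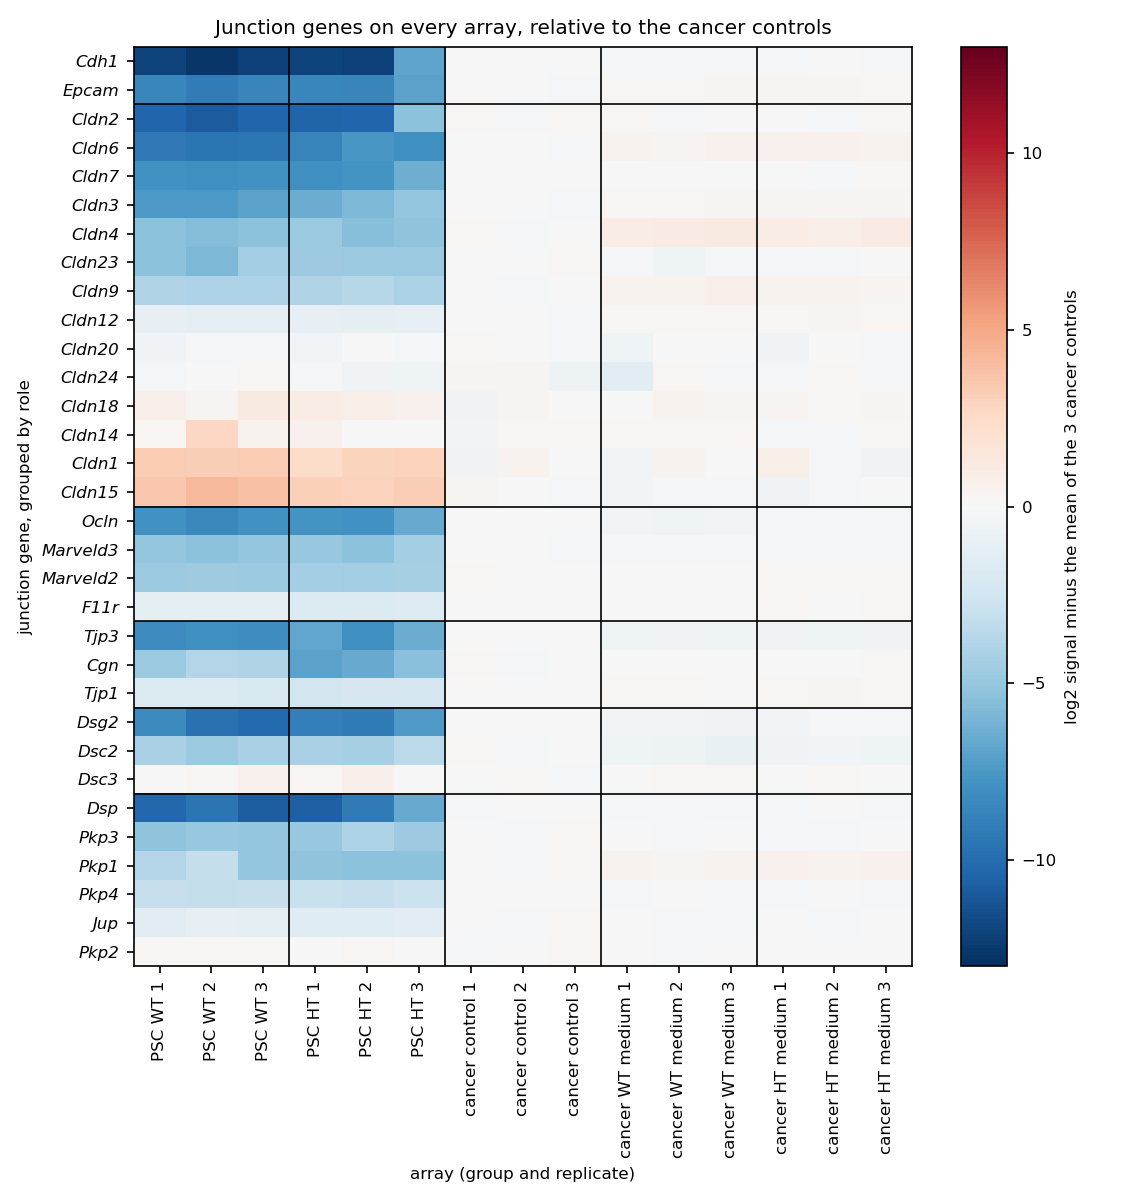
Colour gives the log2 signal of tested junction genes on each of the 15 arrays minus that gene's mean over the 3 control cancer cell arrays (blue lower, red higher), with genes grouped by role and vertical lines between sample groups. The PSC arrays are blue for most genes, Cldn1 and Cldn15 are red there, and Cdh1, Cldn2 and Dsp are paler on PSC HT 3 than on the other PSC arrays.

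Cdh1, which encodes E-cadherin, had levels of 4.49, 4.40 and 4.39 in control cancer cells and of -7.61, -8.22 and -7.67 in PSC WT. It was at least 1130-fold higher in cancer cells (12.26 ± 0.17, adjusted p = 1.66e-08). Epcam, an adhesion molecule of simple epithelia that binds claudin 7, had levels of 0.93, 0.91 and 0.71 against -7.66, -8.27 and -7.76, and was at least 94.8-fold higher (8.75 ± 0.17). Both genes separated the cell types without overlap, and neither was well above background in PSC WT.

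Among the 23 claudins, 14 were tested, 8 were higher in cancer cells and 3 lower. Cldn2, a claudin that forms cation and water pores, had levels of 2.73, 2.30 and 2.71 in cancer cells and -7.75, -8.26 and -7.72 in PSC WT (at least 314-fold). Cldn6, known from early embryonic epithelia, had 1.80, 1.74 and 1.59 against -7.57, -7.82 and -7.64 (at least 172-fold). Cldn7 had 4.68, 4.59 and 4.59 against -3.21, -3.32 and -3.24, a difference of 7.87 ± 0.08 between 2 groups that were both above background. The barrier claudins Cldn3 and Cldn4, both receptors of a clostridial enterotoxin, were also higher, by 7.33 ± 0.15 and by at least 37.0-fold. Cldn9 was higher by 3.97 ± 0.09, Cldn23 by 5.21 ± 0.31 and Cldn12, a claudin without the usual scaffold-binding tail, by 1.17 ± 0.10. Cldn23 was well above background on only 1 of the 3 PSC WT arrays, so its difference is set largely against background.

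The claudins that went the other way were Cldn15, Cldn1 and Cldn18. Cldn15, which forms cation pores, had levels of -0.13, 0.55 and 0.22 in PSC WT and -3.29, -3.70 and -3.89 in control cancer cells (-3.84 ± 0.22, adjusted p = 7.69e-06). Cldn1, a main barrier claudin of the epidermis, read -3.98, -4.08 and -4.02 in PSC WT and was not well above background on any cancer cell array, which makes it at least 2.88-fold lower in cancer cells (-3.24 ± 0.23). Cldn18, a claudin of stomach and lung, read -4.04, -4.32 and -3.57 against -5.15, -4.35 and -4.62. Its difference (-0.73 ± 0.26, adjusted p = 0.0415) was small and did not hold with the slide as a block (-0.63, adjusted p = 0.0862) or with each array scaled to its median (-0.34, adjusted p = 0.234). It was also lost without PSC WT 1 (-0.76), PSC WT 3 (-0.53), control 1 (-0.51) or control 3 (-0.77), at adjusted p of 0.0788 to 0.116. Of the other 3 claudins tested, Cldn14 differed by -1.15 ± 0.63, Cldn24 by -0.06 ± 0.29 and Cldn20 by 0.26 ± 0.14, and none passed.

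The other tight junction membrane genes and the plaque genes named here were all higher in cancer cells. Ocln, which encodes occludin, had levels of 0.12, 0.12 and -0.03 in cancer cells and -7.76, -8.29 and -7.82 in PSC WT (at least 55.1-fold). Tjp3, the zonula occludens protein most restricted to epithelia, had 3.08, 3.08 and 3.00 against -5.09, -4.91 and -5.05 (8.07 ± 0.09). Tjp1, which encodes the scaffold ZO-1, had 3.25, 3.19 and 3.17 against 1.33, 1.37 and 1.23 (1.89 ± 0.08). F11r, the junctional adhesion molecule JAM-A, was measured on every array of both cell types and was higher in cancer cells by 1.22 ± 0.08. Cgn, which encodes cingulin, was higher by 4.18 ± 0.26, Marveld2, the tricellulin of contact corners, by 4.75 ± 0.11, and Marveld3 by 5.17 ± 0.12. The brightest Marveld3 probe was well above background on only 1 of the 3 PSC WT arrays, so its difference is set largely against background.

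The tested desmosome genes divided into those well above background in cancer cells and not in PSC WT, and those measured in both. Dsp, which encodes desmoplakin, the link to keratin, had levels of 2.98, 3.18 and 3.11 in cancer cells and -7.13, -6.36 and -7.67 in PSC WT (at least 447-fold). Dsg2, the desmoglein of simple epithelia, had 2.41, 2.25 and 2.32 against -6.00, -7.42 and -7.73 (at least 263-fold). Dsc2, its desmocollin partner, was at least 4.85-fold higher and Pkp3, a plakophilin, at least 11.5-fold. Pkp1 was higher by 3.99 ± 0.46 and Pkp4 by 3.01 ± 0.08, with 2 and 3 of the PSC WT arrays above background. Of the tested desmosome members, 2 did not pass: Dsc3 differed by -0.24 ± 0.16 and Pkp2, the plakophilin also found in heart, by -0.13 ± 0.09.

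Probes disagreed in direction for Jup and in size for Pkp2. Jup, which encodes plakoglobin of desmosomes and adherens junctions, read 0.31, 0.23 and 0.51 in cancer cells and -0.98, -0.75 and -0.89 in PSC WT with its brightest probe (1.22 ± 0.11, adjusted p = 8.16e-05). A second Jup probe, designed on another transcript record, was lower in cancer cells by 0.58 (-0.58 ± 0.11, adjusted p over all probes = 0.00286), and the mean of all Jup probes gave 0.40 and did not pass (adjusted p = 0.0645). For Pkp2, the other 2 probes were lower in cancer cells (-2.07 ± 0.24 and -1.58 ± 0.29, adjusted p over all probes of 0.000279 and 0.0023). The brightest Pkp2 probe, also below 0, did not pass (-0.13 ± 0.09). Jup therefore has no settled direction between the cell types, and for Pkp2 the size of the difference depends on the probe. For Dsc3, detection rested on the brightest probe, and its other 2 probes were well above background on no array.

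The second comparison set PSC HT against PSC WT. Of 20 members tested, 2 were lower in PSC HT and 0 were higher, beside 4.78% of all 20886 genes tested that were lower and 2.95% that were higher (7.73% in all), and the median difference was -0.01. Both were tight junction genes, Cgn and F11r. The groups did not overlap for 9 members, beside 29.1% of all genes. With each array scaled to its median instead, 3 were lower and 1 higher, and the share of all genes called under that scaling is not given here.

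**Figure D2:**
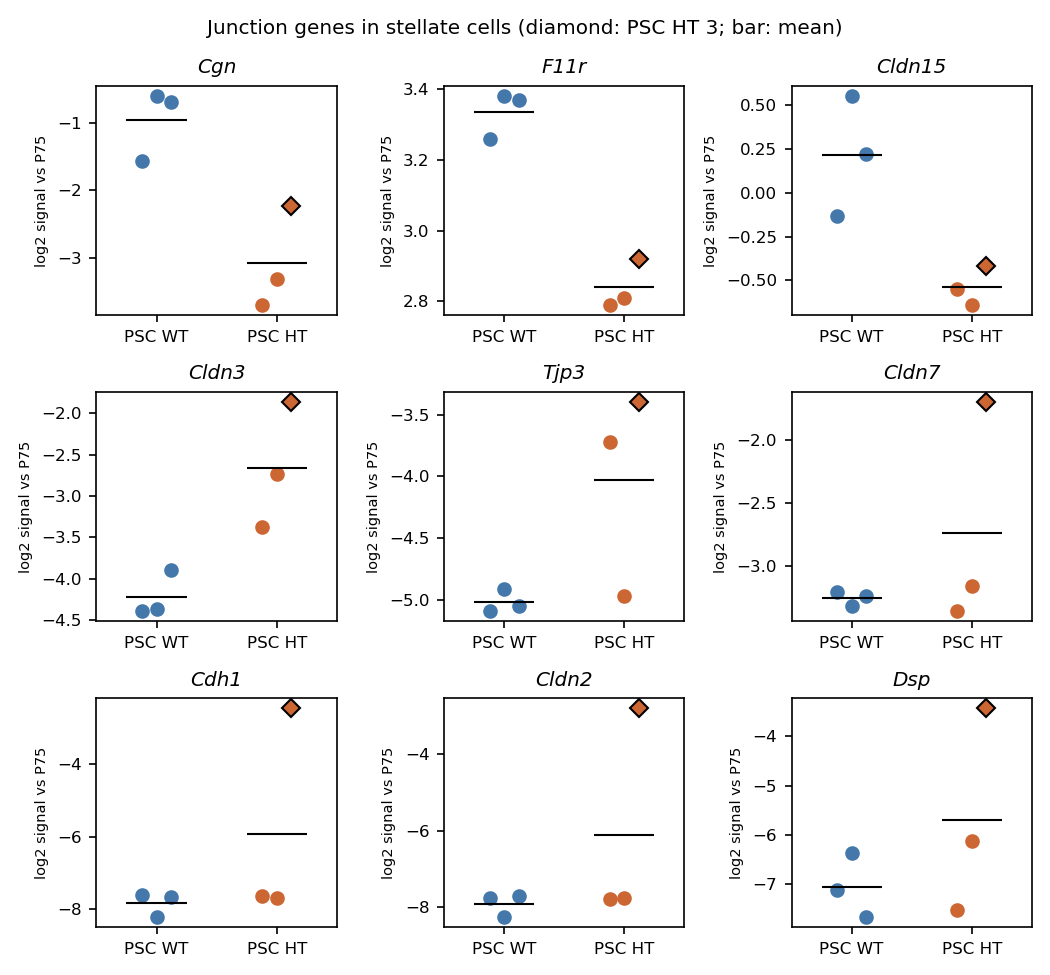
Log2 signal relative to the array's 75th percentile for 9 junction genes in PSC WT and PSC HT (one point per array, bar at the mean of 3, diamond for PSC HT 3, each panel with its own scale). Cgn and F11r are lower on all 3 PSC HT arrays than on all 3 PSC WT arrays, whereas Cdh1, Cldn2, Dsp and Cldn7 are raised on PSC HT 3 alone.

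Cgn, whose probe lies at chr3:94564031-94564090 in mm9, read -1.57, -0.61 and -0.69 in PSC WT and -3.70, -3.32 and -2.23 in PSC HT. All PSC HT arrays were below all PSC WT arrays, a difference of -2.13 ± 0.43 (4.38-fold lower, adjusted p = 0.0354), and -2.55 ± 0.32 without PSC HT 3 (adjusted p = 0.018). The call was lost, at adjusted p of 0.0511 to 0.132, without PSC WT 1 (-2.43), PSC WT 2 (-1.95), PSC WT 3 (-1.99) or PSC HT 1 (-1.82), likewise without PSC HT 2 (adjusted p = 0.101), and with the mean of all probes (-1.33, adjusted p = 0.132). The other Cgn probe in that mean was well above background on no PSC array. With the slide as a block the difference was -2.03 (adjusted p = 0.0824), and within the slides it was -1.39 and -2.67.

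F11r, whose probe lies at chr1:173393848-173393907, read 3.26, 3.38 and 3.37 in PSC WT and 2.79, 2.81 and 2.92 in PSC HT. The arrays of each genotype lay close together and apart from the other genotype, with a difference of -0.50 ± 0.08 (1.41-fold lower, adjusted p = 0.0145) and of -0.54 ± 0.09 without PSC HT 3 (adjusted p = 0.0366). It held with the slide as a block (-0.49, adjusted p = 0.0305), and was -0.41 and -0.57 within the slides, where neither value passed. Without PSC WT 2, PSC WT 3 or PSC HT 2 it was -0.48, at adjusted p of 0.0676, 0.0785 and 0.055.

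The other 18 tested members did not pass. Below 0 lay Cldn15 (-0.75 ± 0.18, adjusted p = 0.0558), Cldn1 (-0.52 ± 0.16), Jup (-0.32 ± 0.09) and Tjp1 (-0.32 ± 0.09), in each of which the genotypes did not overlap. Cldn24 (-0.44 ± 0.16) and Cldn14 (-0.97 ± 0.63) also lay below 0. Tjp1 read 1.33, 1.37 and 1.23 in PSC WT and 0.86, 1.03 and 1.07 in PSC HT. Jup read -0.98, -0.75 and -0.89 against -1.26, -1.18 and -1.13. Its second probe was lower in PSC HT by 1.13 (-1.13 ± 0.09, adjusted p over all probes = 0.00199), with the remaining probe at -0.86 ± 0.45.

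Above 0 lay Cldn3, at -4.39, -4.37 and -3.90 in PSC WT and -3.37, -2.73 and -1.87 in PSC HT (1.56 ± 0.37, adjusted p = 0.0588; 1.17 ± 0.25 and adjusted p = 0.0677 without PSC HT 3). Tjp3 differed by 0.99 ± 0.39 and by 0.67 ± 0.36 without that array. Cldn7 read -3.21, -3.32 and -3.24 against -3.36, -3.16 and -1.70, so its 0.52 ± 0.42 rested on PSC HT 3 and was 0.00 ± 0.10 without it. Marveld2 differed by 0.34 ± 0.10, and other tested members, Pkp2, Pkp4, Dsc3, Cldn9, Cldn12, Cldn18 and Cldn20, by -0.04 to 0.11. Cdh1, Cldn2, Dsp, Epcam (-7.67, -7.77 and -6.08 in PSC HT), Ocln (-7.74, -7.83 and -6.48), Cldn4 (-5.29, -6.08 and -5.72), Cldn6 and Dsg2 were not tested between genotypes, being below background on most or all PSC arrays.

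Markers of other cell types moved with the genotype. Of 8 mesothelial markers, 6 were lower in PSC HT, and the summed level of the list, in units of the 75th percentile, was 11.2 to 19.4 in PSC HT and 40.3 to 50.1 in PSC WT. Of 5 endothelial markers tested, 4 were lower, with sums of 0.278 to 0.33 against 1.17 to 1.33, and Cdh5, the endothelial cadherin, was above background on the PSC WT arrays and on no PSC HT array, while Tek, Tie1 and Erg were on no PSC array. Macrophage markers were higher for 7 of 8 (63.1 to 154 against 14.3 to 26.5), while 2 of 4 Schwann cell markers tested were lower (1.43 to 1.86 against 4.11 to 5.22), 1 of 10 stellate and fibroblast markers was higher and 0 of 7 epithelial markers passed. All 8 mesothelial and all 8 macrophage markers were detected on every PSC array. The cancer cell arrays also had 2 mesothelial and 5 macrophage markers above background, with sums of 273 to 329 and 12.5 to 14.8. These 2 lists were thus not specific to their cell types here. Mesothelium and endothelium carry tight junctions themselves, and the part of these cells in the Cgn and F11r differences was not tested.

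Related genes outside the 48 members are given beside the 4.78% of all genes that were lower and the 2.95% that were higher in PSC HT. Among other tight junction and polarity genes, 3 of 23 were lower in PSC HT and 0 higher: Cxadr, the coxsackie and adenovirus receptor of tight junctions, by -1.70 ± 0.17, and the polarity genes Pard6b (-1.11 ± 0.21) and Prkcz (-1.03 ± 0.13). Among other adherens and gap junction genes, 5 of 21 were lower and 0 higher. Among these were the connexins Gjb5 (-1.62 ± 0.11) and Gja1 (-1.06 ± 0.16) and the classical cadherins Cdh3 (-1.04 ± 0.09) and Cdh2 (-0.88 ± 0.11). Perp, a desmosome membrane protein, fell by 2.85 (-2.85 ± 0.25, adjusted p = 0.00219), the 1 of 10 other desmosome genes that passed. Of 16 tested regulators of the epithelial state, 1 passed, Zeb2, a repressor of Cdh1, higher by 0.41 ± 0.09. The medians of the 4 lists were -0.02, -0.07, -0.17 and -0.04.

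The comparisons of media asked how medium conditioned by WT or HT PSC changed the cancer cells over 24 h. Both use the same 3 control arrays, so they are not independent. Single claudins rose and a few other junction genes fell, mostly by less than 2-fold, and the E-cadherin gene did not pass in either. In WT PSC medium, 4 of 32 tested members were higher and 4 lower, beside 5.95% of all 19687 genes tested (2.8% higher and 3.15% lower). In HT PSC medium, 5 were higher and 2 lower, beside 5.47% of all genes (2.97% higher and 2.5% lower). Groups did not overlap for 15 and 18 members, beside 25.3% and 24.4% of all genes, and the medians were -0.04 and -0.06. Called in both media were Cldn4, Cldn6, Cldn9, Pkp1, Tjp3 and Dsg2, each in 1 direction. With each array scaled to its median, which moved the median of all genes from 0.025 to 0.09 and from 0.011 to 0.084, 3 were higher and 2 lower in WT PSC medium, and 3 higher and 0 lower in HT PSC medium. The share of all genes called under that scaling is not given here.

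**Figure D3:**
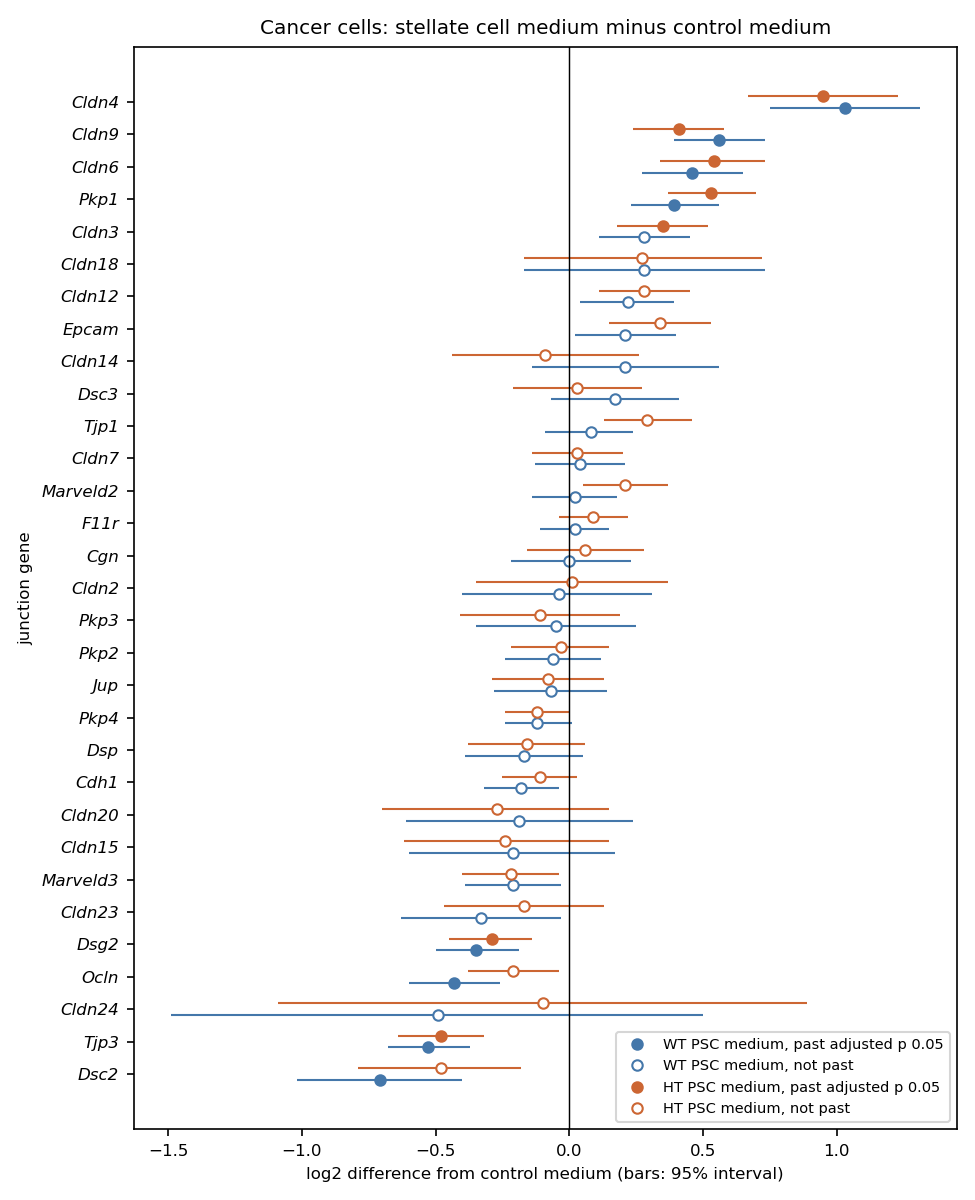
Log2 difference from control medium with its 95% interval for tested junction genes in cancer cells given WT PSC medium (blue) or HT PSC medium (orange); filled points passed adjusted p 0.05. Cldn4 lies farthest to the right, near 1 in both media (1.03 and 0.95), and Dsc2 and Tjp3 lie at the left end.

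Cldn4, whose probe lies at chr5:135422135-135422194 in mm9, had levels of -0.26, -0.73 and -0.53 in control cells, 0.42, 0.52 and 0.64 in WT PSC medium, and 0.42, 0.36 and 0.56 in HT PSC medium. Every treated array was above every control array. The rise was 1.03 ± 0.12 in WT PSC medium (2.04-fold, adjusted p = 0.00218) and 0.95 ± 0.12 in HT PSC medium (1.93-fold, adjusted p = 0.00383), and it remained past the threshold in 18 of 20 alternative settings in each medium. The exceptions were the fits within 1 slide, with rises of 0.82 and 1.31 in WT PSC medium and, in HT PSC medium, of 0.88 and 1.10, at adjusted p of 0.0986 to 0.221.

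The neighbours Cldn6 (chr17:23819027-23819086) and Cldn9 (chr17:23820168-23820227) rose in both media. Cldn6 read 1.80, 1.74 and 1.59 in control cells, 2.21, 2.03 and 2.27 in WT PSC medium and 2.27, 2.27 and 2.20 in HT PSC medium. Its rise was 0.46 ± 0.08 (adjusted p = 0.0159) and 0.54 ± 0.08 (adjusted p = 0.0103), and in WT PSC medium it was lost without WT medium array 1 (0.44, adjusted p = 0.0635) or 3 (0.41, adjusted p = 0.0717). Cldn9 read 1.09, 0.90 and 1.05, then 1.52, 1.52 and 1.68, and 1.45, 1.42 and 1.41. For both genes the control arrays lay below all 6 treated arrays. Cldn9 rose by 0.56 ± 0.07 (adjusted p = 0.00377) and 0.41 ± 0.07 (adjusted p = 0.0173), the latter lost without control 2 (0.36) or any of the HT medium arrays (0.40 to 0.42), at adjusted p of 0.0537 to 0.0713.

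Cldn3, whose probe lies at chr5:135463284-135463342 near Cldn4, read 3.17, 3.18 and 2.97 in control cells, 3.35, 3.37 and 3.45 in WT PSC medium, and 3.51, 3.43 and 3.43 in HT PSC medium. It passed in HT PSC medium (0.35 ± 0.07, adjusted p = 0.0322) and not in WT PSC medium (0.28 ± 0.07, adjusted p = 0.067). Leaving out any 1 of the 3 control or 3 HT medium arrays ended the call, with values of 0.28 to 0.39 and adjusted p of 0.0555 to 0.121. Cldn7 had levels of 4.68, 4.59 and 4.59 in control cells, 4.67, 4.64 and 4.68 in WT PSC medium and 4.72, 4.51 and 4.74 in HT PSC medium. Its differences were 0.04 ± 0.07 (95% interval -0.13 to 0.21) and 0.03 ± 0.07 (-0.14 to 0.20). Cldn2 differed by -0.04 ± 0.16 and 0.01 ± 0.16, and Cldn12 by 0.22 ± 0.07 and 0.28 ± 0.07, without passing.

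**Figure D4:**
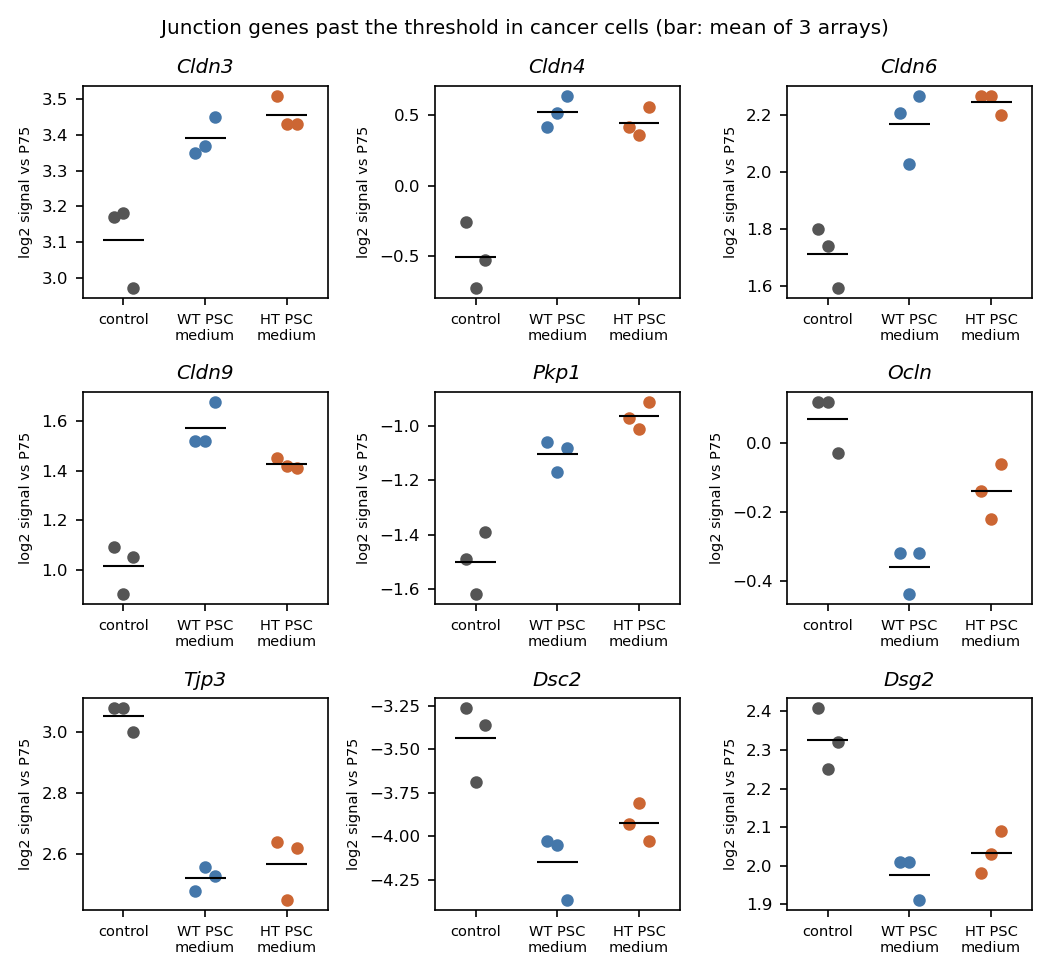
Log2 signal relative to the array's 75th percentile for the 9 junction genes that passed in at least 1 medium, in control cells, WT PSC medium and HT PSC medium (one point per array, bar at the mean of 3, each panel with its own scale). The control arrays lie below all treated arrays for Cldn3, Cldn4, Cldn6, Cldn9 and Pkp1, and above all treated arrays for Ocln, Tjp3, Dsc2 and Dsg2.

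In the tight junction plaque, Tjp3 fell. Its probe at chr10:80735967-80736026 read 3.08, 3.08 and 3.00 in control cells, 2.48, 2.56 and 2.53 in WT PSC medium and 2.64, 2.45 and 2.62 in HT PSC medium. The differences were -0.53 ± 0.07 (1.44-fold lower, adjusted p = 0.0038) and -0.48 ± 0.07 (1.39-fold lower, adjusted p = 0.00659), and no single array ended either call. Tjp1 read 3.25, 3.19 and 3.17 in control cells, 3.33, 3.37 and 3.15 in WT PSC medium and 3.48, 3.54 and 3.46 in HT PSC medium. Its difference was 0.08 ± 0.07 in WT PSC medium and 0.29 ± 0.07 in HT PSC medium (adjusted p = 0.0562), where a second Tjp1 probe gave 0.46 ± 0.10 (adjusted p over all probes = 0.0497).

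Among the other tight junction membrane genes, Ocln had levels of 0.12, 0.12 and -0.03 in control cells, -0.32, -0.44 and -0.32 in WT PSC medium and -0.14, -0.22 and -0.06 in HT PSC medium. It fell in WT PSC medium (-0.43 ± 0.07, adjusted p = 0.012; -0.39 and adjusted p = 0.0512 without WT medium array 2) and did not pass in HT PSC medium (-0.21 ± 0.07, adjusted p = 0.155). HT PSC medium lay between the other groups for this gene on all arrays. Its neighbour Marveld2 differed by 0.02 ± 0.07 and 0.21 ± 0.07, Marveld3 by -0.21 ± 0.08 and -0.22 ± 0.08, and F11r by 0.02 ± 0.06 and 0.09 ± 0.06, and none of these passed.

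The adhesion genes Cdh1 and Epcam did not pass. Cdh1 read 4.49, 4.40 and 4.39 in control cells, 4.23, 4.22 and 4.29 in WT PSC medium and 4.28, 4.39 and 4.29 in HT PSC medium. The treated arrays were at or below the lowest control array, and the differences were -0.18 ± 0.06 (95% interval -0.32 to -0.04, adjusted p = 0.145) and -0.11 ± 0.06 (-0.25 to 0.03, adjusted p = 0.402). Epcam read 0.93, 0.91 and 0.71, then 1.02, 1.00 and 1.17, and 1.23, 1.23 and 1.11. The treated arrays were all above the controls, with differences of 0.21 ± 0.08 (adjusted p = 0.199) and 0.34 ± 0.08 (adjusted p = 0.0539).

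Desmosome genes moved in both directions. Pkp1, whose protein strengthens desmosomes, read -1.49, -1.62 and -1.39 in control cells, -1.06, -1.17 and -1.08 in WT PSC medium and -0.97, -1.01 and -0.91 in HT PSC medium. It rose by 0.39 ± 0.07 (adjusted p = 0.0173) and 0.53 ± 0.07 (adjusted p = 0.00563), and in WT PSC medium the call was lost without control 1 (0.40), control 2 (0.34), WT medium array 1 (0.37) or array 3 (0.38), at adjusted p of 0.0512 to 0.0777.

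Both cadherins that pair in simple epithelial desmosomes were lower in WT PSC medium. Dsc2 read -3.26, -3.69 and -3.36 in control cells, -4.03, -4.05 and -4.37 in WT PSC medium and -3.93, -3.81 and -4.03 in HT PSC medium. It differed by -0.71 ± 0.13 (1.64-fold lower, adjusted p = 0.018) and -0.48 ± 0.13 (adjusted p = 0.082), and without control 1 (-0.62), control 3 (-0.68) or WT medium array 3 (-0.61) the first did not pass, at adjusted p of 0.0587 to 0.0702. Dsg2 read 2.41, 2.25 and 2.32, then 2.01, 2.01 and 1.91, and 1.98, 2.03 and 2.09. All treated arrays were below the controls in both genes. Dsg2 differed by -0.35 ± 0.07 (adjusted p = 0.0198) and -0.29 ± 0.07 (adjusted p = 0.0429).

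With the mean of all Dsg2 probes the differences were -0.03 (adjusted p = 0.926) and -0.10 (adjusted p = 0.778). That mean holds a probe that was well above background on no array (0.47 and 0.31). The remaining probe differed by -0.22 ± 0.15 and -0.33 ± 0.15 without passing. With replicate numbers as a block the WT PSC medium value of -0.35 had an adjusted p of 0.0535. The Dsg2 call was lost in WT PSC medium without control 1 or 3 or any WT medium array (-0.37 to -0.31, adjusted p of 0.0505 to 0.0894), and in HT PSC medium without any 1 of the 6 arrays (-0.33 to -0.25, adjusted p of 0.0634 to 0.151). Dsp read 2.98, 3.18 and 3.11 in control cells, 2.88, 2.98 and 2.90 in WT PSC medium and 2.79, 3.12 and 2.86 in HT PSC medium. Jup read 0.31, 0.23 and 0.51, then 0.41, 0.19 and 0.23, and 0.28, 0.21 and 0.30. The groups overlapped in both of these genes, and the differences were -0.17 ± 0.10 and -0.16 ± 0.10 for Dsp and -0.07 ± 0.09 and -0.08 ± 0.09 for Jup. Other members, Cgn, Cldn14, Cldn15, Cldn18, Cldn20, Cldn23, Cldn24, Dsc3, Pkp2, Pkp3 and Pkp4, differed by -0.49 to 0.28 in WT PSC medium and by -0.27 to 0.27 in HT PSC medium and did not pass, although 1 dimmer Pkp4 probe did in HT PSC medium (-0.60 ± 0.13, adjusted p over all probes = 0.0401).

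The slide was examined for all members called in the media. With the slide as a block, 8 members passed in WT PSC medium and 7 in HT PSC medium, the same genes as without it. Within single slides none passed in either medium, where a group can have 1 array, but the differences of all 15 calls kept their sign. For Tjp3 they were -0.55 and -0.53 in WT PSC medium and -0.41 and -0.63 in HT PSC medium.

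HT PSC medium and WT PSC medium were then set against each other directly. Of 32 members tested, 0 passed, as did 0 of all 19687 genes (0%) by limma. An unadjusted p under 0.05, whose share among all genes was not counted, was found for 3 members. These were Tjp1 (0.22 ± 0.07, 95% interval 0.05 to 0.38), Ocln (0.22 ± 0.07, 0.05 to 0.39) and Marveld2 (0.19 ± 0.07, 0.02 to 0.35). All 3 were higher in HT PSC medium, at adjusted p of 0.972 to 0.984. The groups did not overlap for 6 members, beside 11.5% of all genes. Ocln and Dsc2, which passed in WT PSC medium and not in HT PSC medium, differed between the media by 0.22 and by 0.23 ± 0.13 (-0.08 to 0.54), and Cldn3, which passed in HT PSC medium and not in WT PSC medium, by 0.07 ± 0.07 (-0.10 to 0.24). For Cldn4 the interval was -0.36 to 0.20, for Cldn6 -0.12 to 0.27, for Cldn9 -0.32 to 0.02, for Tjp3 -0.12 to 0.20 and for Cdh1 -0.07 to 0.21.

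Junction genes outside the 48 members are given beside the 5.95% and 5.47% of all genes called in WT and HT PSC medium. Of 24 tight junction and polarity genes, 0 passed in WT PSC medium and 1 in HT PSC medium, Pard6b (0.39 ± 0.09, and 0.38 ± 0.09 at adjusted p = 0.0504 in WT PSC medium). Of 21 adherens and gap junction genes, 2 were higher and 1 lower in WT PSC medium, and 3 were higher and 1 lower in HT PSC medium. Gjb1, the connexin of liver and gland cells, fell in both media (-1.06 ± 0.09 and -0.92 ± 0.09), while the connexin Gja1 rose in both (0.67 ± 0.13 and 0.69 ± 0.13) and Gjc1 rose in HT PSC medium (0.48 ± 0.10). Krt14, a basal keratin, rose by 0.44 ± 0.09 and 0.53 ± 0.09, the 1 of 10 other desmosome genes that passed.

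Of 22 regulators of the epithelial state tested, 4 were lower and 0 higher in each medium, beside 3.15% and 2.5% of all genes that were lower. Klf4 fell from a mean level of 5.15 by 1.44 (-1.44 ± 0.08, adjusted p = 8.44e-05) and by 1.26 (-1.26 ± 0.08, adjusted p = 0.000218). Elf3 and Ehf, Ets factors of epithelia, differed by -0.55 ± 0.08 and -0.44 ± 0.09 in WT PSC medium and by -0.44 ± 0.08 and -0.41 ± 0.09 in HT PSC medium. Grhl2, a grainyhead factor that activates Cdh1 and Cldn4, was dim throughout. Its mean level in control cells was -4.82, where the lowest readings well above background were -5.74 to -5.35. It was not well above background on any treated array and was at least 1.63-fold lower in WT PSC medium (adjusted p = 0.0123) and at least 1.54-fold lower in HT PSC medium (adjusted p = 0.0146). The medians of this list were -0.12 and -0.08.

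Between the cell types, the same lists were split. Among regulators, 16 of 23 were higher in cancer cells and 5 lower. Hnf4a was at least 2700-fold, Foxa1 at least 110-fold, Elf3 at least 72.2-fold and Ehf at least 30.4-fold higher, whereas Snai1, which encodes Snail, was at least 236-fold lower. Tight junction and polarity genes were higher for 16 of 25, led by Crb3 (at least 63.2-fold) and Lsr (6.46 ± 0.12), and lower for 7, led by Jam3 (at least 241-fold). Adherens and gap junction genes were higher for 8 of 22, led by Cdh17 (at least 315-fold), and lower for 10, led by Gjb5 (at least 105-fold). Other desmosome genes were higher for 7 of 11, with Ppl (6.32 ± 0.18) and Evpl (4.86 ± 0.15), both plakins of the cornified envelope, among them, and lower for 2, the keratins Krt17 (-1.08 ± 0.20) and Krt6a (-0.93 ± 0.32). Beside these counts stands the 71.4% of all genes that differed.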

How the data were processed

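Each deposited scanner file gives Cy3 intensity values of 1 channel, made by Agilent Feature Extraction (10.7.3.1), which subtracted background and detrended the array, per the file headers; arrays were not scaled to each other. The authors' log2 values in the series matrix, of unstated scale and centring, were used as an alternative, never across cell types. Here log2 intensities had the 75th percentile of the array subtracted, outlier-marked spots were dropped and repeated probes averaged. A gene was read from its brightest probe over the 15 arrays. Tests used limma (3.58.1; R 4.3.3) in separate fits of PSC, cancer cells and the cell types, with Benjamini-Hochberg adjustment, and matplotlib (3.10.9) drew the plots.

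Members and lists were chosen with earlier results of these data known. Some genes counted in the totals are not reported by name here. Array values are given for those past the threshold within a cell type, for Cdh1, Epcam, Ocln, Tjp1, Cldn4, Cldn7, Dsp and Jup, and for up to 8 of the largest differences per side between cell types. Up to 5 genes per other list and comparison are named, and only some of those that qualified between cell types. Replicate numbers were checked as pairs over 16908 genes. Deviations of same-numbered arrays correlated at 0.227, 0.331 and 0.264 between control and WT PSC medium, which meets the rule used for pairs (each above 0.1). Differently numbered arrays of these groups correlated at -0.558 to 0.292, and control 1 (0.25 with WT medium array 2) and control 3 (0.292 with array 1) did so more than with their own number, so the numbers may not mark true pairs. Over all other group pairs the range was -0.319 to 0.463 and the numbers do not pair. The procedure was tested on simulated data in which few genes were changed. Left unchanged were 20655 of 20855 genes in PSC, 19442 of 19642 in WT PSC medium and 21688 of 21888 between the cell types. Of genes changed by 0.5 log2 units the procedure recovered 26.9% in PSC, 38.8% in WT PSC medium and 16.4% between the cell types. Of genes changed by 1 log2 unit it recovered 70.1%, 82.1% and 50.7%. In the real comparisons 7.73%, 5.95% and 71.4% of all genes were called, and the adjustment depends on that share, so these rates may not hold there. Differences of about 0.5 or less that did not pass may still have been missed. Alternatives changed the threshold, the arrays fitted, blocks, the variance model, the probe rule, the filter, scaling and background correction (normexp, offset 50). Precision is limited by the 3 arrays per group.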

Additional observations from a re-analysis of the deposited data

How the results depend on the processing

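For PSC HT against PSC WT (2 members called), the count was 4 with each array scaled to its median, 0 without the filter on dim probes, 4 with only genes above background on every array, 1 with the mean of all probes, 1 with the slide as a block, 0 and 1 within slides 1 and 2, 5 with a trended robust variance, 10 with all 15 arrays in 1 fit, 5 in the series matrix, 0 at adjusted p 0.01, and 0 to 2 without single arrays. For WT PSC medium (8) and HT PSC medium (7), it was 5 and 3 with median scaling, 3 and 3 without the filter, 0 and 0 within either slide, 2 and 2 with all 15 arrays in 1 fit, 3 and 3 at adjusted p 0.01, and 4 to 7 and 4 to 5 without single arrays. Between the media the count was 0 under all alternatives run. For cancer cells against PSC WT (28), it was 14 with only genes above background on every array, which leaves out those not detected in PSC, and 27 to 28 without single arrays. Where no construction shows it, the cause was not tested. The share of all genes called under each alternative, and under the replicate block below, is not given here. The counts therefore show only how many members were called under each setting.

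With replicate numbers as a block the counts were 3 in PSC, 7 and 5 in the media, 0 between the media and 27 between the cell types; of the 8 called in WT PSC medium, 7 were called under the block. Scaling to the median moved the median of all genes between the cell types from -0.037 to 0.359.

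The named values that changed sign were 10, and none was called: Jup in WT PSC medium without control 3 (0.01, range without single arrays -0.14 to 0.01); Cldn7 in HT PSC medium with the mean of probes (-0.09), within slide 2 (-0.09) and without HT medium array 3 (-0.01, range -0.01 to 0.11); and, between the media, Cldn4 within slide 1 (0.07), Cldn7 with quantile normalization (0.01), within slide 1 (0.05) and without HT medium array 2 (0.07, range -0.05 to 0.07), and Jup without WT medium array 1 (0.06) or HT medium array 2 (0.01, range -0.06 to 0.06).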

Other observations

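Of the 48 junction genes, 15 were tested in no comparison. Cldn8, Cldn10, Cldn13, Cldn17, Cldn19, Cldn22, Dsc1, Dsg1c and Dsg4 were well above background on none of the 15 arrays. The other 6 were above background on 1 to 3 arrays each. Dsg1b read -2.67 on HT medium array 1 and -7.44 and -6.36 on the other HT medium arrays. Cldn11 read -2.65 on HT medium array 3 beside -6.78 and -5.53, and was also above background on 1 PSC WT and 1 control array. Cldn16 read -4.08 on PSC WT 1 beside -8.24 and -7.69, and Dsg3 read -4.98 on PSC WT 3 beside -7.86 and -8.33. Dsg3 was also above background on HT medium arrays 1 and 2, at -5.05 and -4.34, and at -7.90 on the third. Cldn5 read -4.80 on PSC WT 2 and -4.47 on control 3. In PSC, Cldn14 was not called in any comparison but read -2.43 on PSC WT 2 beside -4.85 and -4.65. These single-array readings were not tested.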
